A study of Zea mays with 4 samples.

Results

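The regions described here are the broad O11 sites of the maize kernel: places where the enriched stretch of DNA was at least 800 bp wide in both replicates of a chromatin immunoprecipitation experiment. Of 14746 replicate 1 regions on chromosomes 1 to 10, 9856 (66.8%) overlapped a replicate 2 region by at least 1 bp. Of these shared regions 425 (4.31%) were broad, and the other 9431 serve as the comparison. The regions were chosen by their measured widths, and pileup, fold and summit come from the same enrichment, so these values are given as a description, with no test.

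Kernels were collected 15 days after pollination from wild-type (WT) maize and from the o11/o11 mutant, whose seeds are labelled as having no O11 protein. An antibody raised in rabbits against full-length O11 was used on both genotypes, so the antibody and the cross-linking are shared and the genotype differs. Each genotype gave 2 libraries, 1 in each of 2 biological replicates prepared at different times, and the authors deposited 1 peak list per replicate, made with WT as the sample and o11 as the control. The material was whole kernels, so the lists do not say which kernel tissue the chromatin came from. Positions are those of B73 RefGen_v3.

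Opaque11 (O11) is a transcription factor of the basic helix-loop-helix (bHLH) family that acts in the endosperm, the starch- and protein-storing tissue of the kernel. Factors of this family bind short DNA words called E-boxes, usually as dimers. Because chromatin is sheared into fragments before precipitation, a single bound position is read out as an enriched stretch about as long as a fragment or somewhat longer. Peak callers join enriched positions that touch or nearly touch into 1 region and report 1 summit, the position of highest coverage. In both lists 0 regions shared the start and end of another, so each region had 1 summit and further maxima inside it are not visible. No sequence of this build was used here, so the sequence and the genes at these positions were not analysed.

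The broad regions had a median width of 1061 bp in replicate 1 (quartiles 919 and 1268) and of 1002 bp in replicate 2 (896 and 1182). The other shared regions had medians of 416 and 395 bp. The widest broad region of replicate 1 reached 3661 bp and that of replicate 2 reached 2636 bp. In 163 of the 425 the smaller of both widths was under 900 bp, and in 15 it was 1500 bp or more. The replicate 1 stretch was the longer at 251 and the replicate 2 stretch at 171. Although few, the broad regions made up 9.91% of the DNA covered by shared replicate 1 regions, 485 kb of 4.89 Mb.

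**Figure D1:**
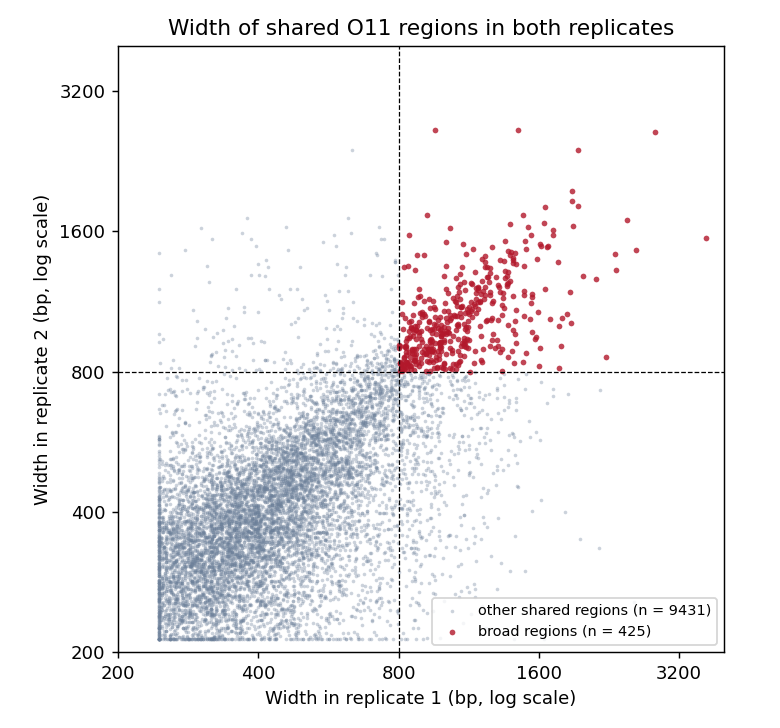
Width of each of the 9856 shared regions in replicate 1 (horizontal, bp, log scale) and in replicate 2 (vertical, bp, log scale); red points are the 425 broad regions and dashed lines mark 800 bp. The red points fill the corner that the rule defines, and many regions beyond 1 dashed line stay short of the other.

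The limit of 800 bp cut through a continuous range of widths. Just inside it lay the region of chromosome 1 from 23108345 to 23109484, with widths of 1140 and 800 bp. The region of chromosome 8 from 114267410 to 114268210 measured 801 and 912 bp, and that of chromosome 9 from 102913120 to 102913920 measured 801 and 899 bp. Just outside it were 86435567 to 86436365 on chromosome 10 (799 and 1290 bp), 22894365 to 22895162 on chromosome 3 (798 and 808 bp) and 173930082 to 173930999 on chromosome 8 (918 and 797 bp). The folds of the 3 regions inside were between 6.71 and 10.6 in replicate 1 and those of the 3 outside from 5.96 to 12.1, so they overlapped in that list. In replicate 2 they did not overlap: the 3 inside had folds from 8.25 to 10.3 and the 3 outside from 14.9 to 21.5.

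A region that was wide in 1 replicate was more often wide in the other than a narrow one was. Here the regions are taken by their width in 1 list and measured in the other. Of the 1011 shared regions of replicate 1 that were at least 800 bp wide (10.3% of all shared), 425 (42.0%, Wilson 95% interval 39.0 to 45.1) overlapped a replicate 2 region of that width. Among the 8845 narrower ones it was 279 (3.15%, 2.81 to 3.54), and over all shared regions 7.14%. In the other direction, 425 of 656 wide replicate 2 regions overlapped a wide replicate 1 region (64.8%, 61.1 to 68.3), against 782 of 9388 narrower ones (8.33%, 7.79 to 8.91) and 12.0% over all. The wide replicate 2 regions had a median width of 906.5 bp in replicate 1, where the narrower ones had 419 bp. Across the 9856 shared regions the widths of both replicates had a Spearman correlation of 0.55, and within the broad regions alone it was 0.54 (n = 425). Regions of 1 list share a pair of libraries, so these correlations are descriptions. The count of 425 rests on asking for width in both lists: the replicate 1 width alone gives 1011 regions, and the width of the nearest replicate 2 partner alone gives 690. Intervals here and throughout cover counting error only and treat regions as independent.

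The remaining wide regions were of several kinds. In replicate 1, 38 wide regions had no replicate 2 partner and 586 had partners below 800 bp, with a median partner width of 558.5 bp. Of those 586, 160 overlapped at least 2 replicate 2 regions, so the stretch that was 1 region in replicate 1 was listed in pieces in replicate 2. In replicate 2 only 5 wide regions were unshared, and 36 of the 231 with narrow partners overlapped at least 2 replicate 1 regions. Of the 425 broad regions 34 (8.0%) overlapped at least 2 replicate 2 regions, as did 217 (2.3%) of the 9431 others. The 425 replicate 1 stretches had 424 distinct partners, since 2 on chromosome 10 shared 1.

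The borders of paired broad regions can be described only under the rule, which keeps pairs that are wide in both lists and leaves out the 586 wide replicate 1 regions with narrow partners. The median distance between the starts in both replicates was 56 bp, and between the ends it was 62 bp. The other shared regions, although far narrower, had 53 and 55 bp. The median broad region had 93.7% of its replicate 1 stretch covered by its partner, and 96.3% of its replicate 2 stretch.

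The widest region of all by its smaller width lay on chromosome 6, from 162278252 to 162281094. Its width was 2843 bp in replicate 1. In replicate 2 it was 2619 bp, wholly inside the replicate 1 stretch. Its WT pileup, the coverage at the summit, was 34 in replicate 1, where the o11 control gave a local background of 1.62. This was the lowest replicate 1 background of any shared region and recurred at other regions named here. Whether it is a floor of the list was not tested. In replicate 2 the pileup was 61.7 and the background 1.00. The authors' deposited table gives fold enrichments of 13.3 (exact Poisson interval 9.35 to 18.5) and 31.3 (24.6 to 39.4). The summits were 4 bp apart, at 82.5% and 83.7% of the way through the region.

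Chromosome 2 held a close pair of very wide regions. The first, from 5839957 to 5841843, was 1887 and 1952 bp wide, with folds of 10.5 and 26.0 and summits 11 bp apart. The second, from 5857160 to 5859100, was 1941 and 2396 bp wide, with folds of 7.12 and 15.9 and summits 35 bp apart. Their replicate 1 summits were 16762 bp from each other, and both stretches had their summit past the middle in each replicate. A further region of chromosome 2, from 20630100 to 20631743, was 1644 and 1667 bp wide, with folds of 7.10 and 6.75 and summits 19 bp apart.

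Chromosome 3 supplied 3 of the 10 widest regions. The region 5956157 to 5958038 was 1882 and 1863 bp wide, with folds of 10.6 and 6.54, and its summits were 253 bp apart. At 159861727 to 159863670 the widths were 1944 and 1813 bp, the folds 6.92 and 13.1, and the summits lay 33 bp apart, both close to 56% of the width. The region 22733294 to 22735186 was 1893 and 1640 bp wide. It had the highest replicate 1 fold of the 10, at 16.4 (11.9 to 22.0), over the same lowest background of 1.62. In replicate 2 its fold was 14.4 (11.2 to 18.2).

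The other 3 of the 10 widest lay on chromosomes 6, 8 and 9. On chromosome 9 the region 141794837 to 141797306 measured 2470 bp in replicate 1. Its replicate 2 partner measured 1696 bp, and that list held a second region within the same stretch. On chromosome 6 the region 164388119 to 164389831 was 1713 and 1607 bp wide, with folds of 8.62 and 18.0. On chromosome 8 the region 151194609 to 151196256 was 1648 and 1808 bp wide with nearly the same borders, but its summits were 726 bp apart, at 57.1% of the width in replicate 1 and at 11.3% in replicate 2. The pileups of the 10 were between 30 and 46 in the first replicate and between 31.71 and 61.7 in the second.

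**Figure D2:**
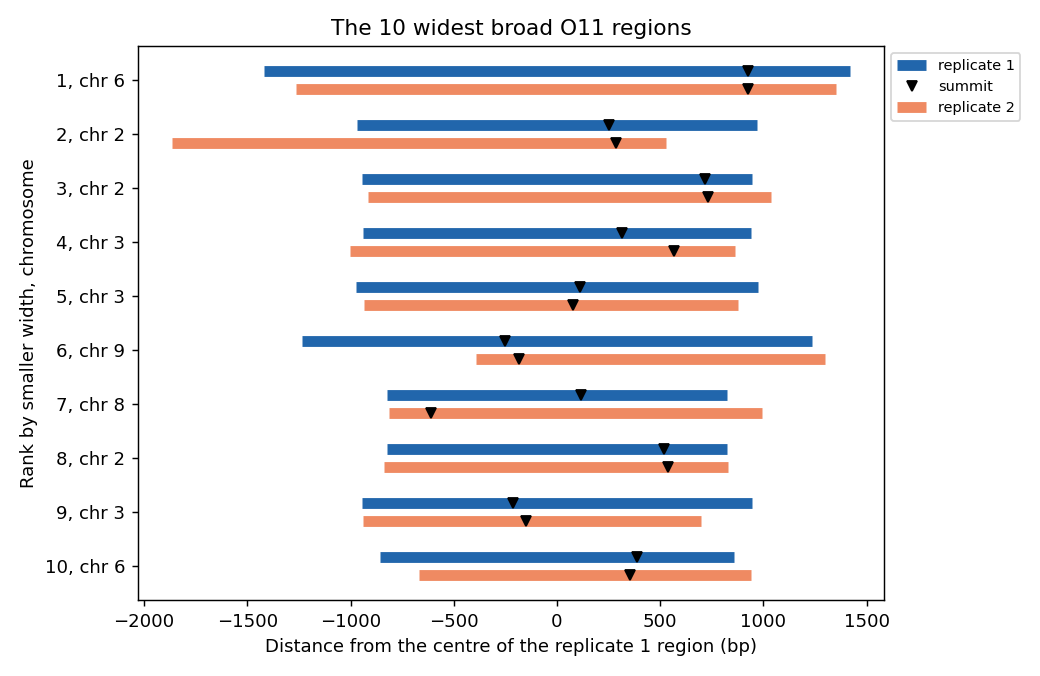
Extent of the 10 widest broad regions, ranked by their smaller width, as bp from the centre of the replicate 1 region (horizontal); blue bars are replicate 1, orange bars replicate 2 and triangles the summits. The widths run from 1644 to 2843 bp in replicate 1 and from 1607 to 2619 bp in replicate 2, summits of the first lie 4 bp apart, and those of the seventh lie 726 bp apart.

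The longest stretch in a single list was on chromosome 5 in replicate 1 (3661 bp) and on chromosome 10 in replicate 2 (2636 bp). By the smaller of both widths, the widest broad regions of the other 5 chromosomes ranked below these 10. They were 77469030 to 77470742 on chromosome 5 (1713 and 1572 bp), 163094902 to 163096440 on chromosome 7 (1539 and 1574 bp) and 268800992 to 268802600 on chromosome 1 (1609 and 1504 bp). Chromosome 4 followed with 3892637 to 3894022 (1386 and 1659 bp), and chromosome 10 with 5116002 to 5117444 (1443 and 2636 bp). The folds of these 5 regions were between 7.01 and 15.1 in the first replicate and between 10.97 and 42.3 in the second.

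Broad regions had taller summits than the other shared regions, with much overlap. In replicate 1 their WT pileup ran from 14 to 142, with a median of 37 (95% order-statistic interval 36 to 39), where the others ran from 10 to 398 with a median of 25 (24 to 25). In replicate 2 it ran from 10.28 to 196.23, with a median of 43.7 (42.0 to 45.4), where the others ran from 8.57 to 227.08 with a median of 26.56 (26.56 to 27.4). On the log2 scale the ratio of the medians was 0.57 in replicate 1 and 0.72 in replicate 2. The quartiles were 30 and 45 against 20 and 31 in replicate 1, and 33.42 and 55.7 against 19.71 and 36.85 in replicate 2, so the middle 50% of both classes overlapped only slightly. The very tallest shared summits were not broad, since both upper ends belonged to the other regions.

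**Figure D3:**
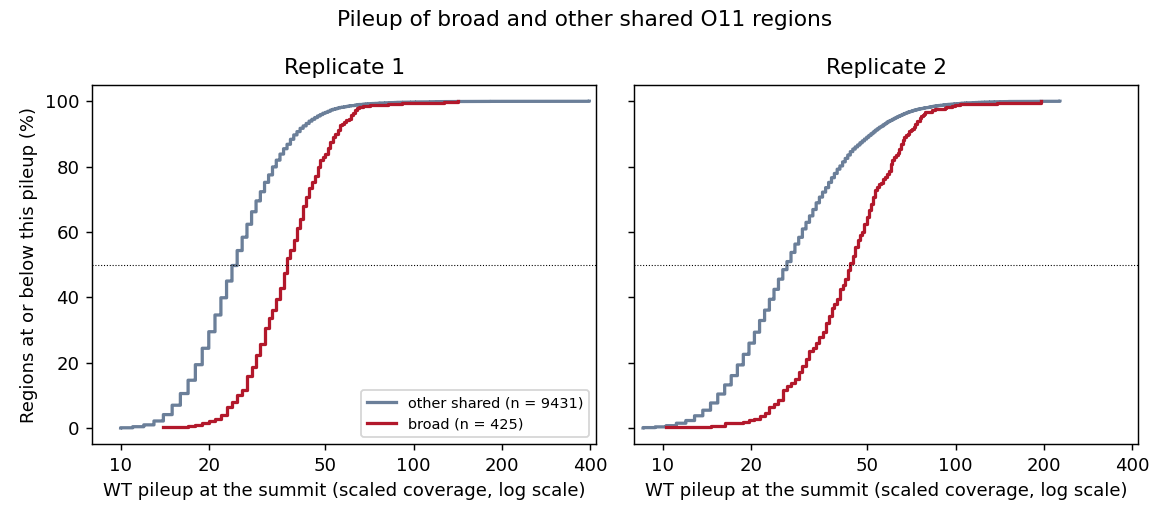
Cumulative share of regions (vertical, %) by WT pileup at the summit (horizontal, scaled coverage, log scale) for the 425 broad regions in red and the 9431 other shared regions in grey, in each replicate. At 50% (dotted) the red line stands at 37 against 25 in replicate 1 and at 43.7 against 26.56 in replicate 2, and the grey line reaches further right.

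The o11 background of the broad regions was somewhat lower than that of the others in replicate 1 and alike in replicate 2. Its median was 2.83 against 3.12 in replicate 1 and 2.0 in both classes of replicate 2. A background of 10 or more, as seen at a small class of regions in these lists, occurred at 2 broad regions in replicate 1 and 1 in replicate 2. Among the others the background reached 183.9 and 117.0, but those of 10 or more were not counted, so the classes cannot be compared here. By the authors' deposited fold enrichment the replicate 1 medians were 9.92 (9.52 to 10.4) for broad and 6.04 (5.99 to 6.10) for other regions, a log2 ratio of 0.72. In replicate 2 they were 13.3 (12.6 to 14.0) and 8.81 (8.66 to 8.90), a log2 ratio of 0.60. With regions taken by their replicate 1 width alone, the log2 ratios in replicate 2 were lower, at 0.47 for pileup and 0.40 for fold. Median -log10 q was 25.2 against 10.8 in replicate 1 and 35.5 against 16.5 in replicate 2. Fold was the higher in replicate 2 at 336 of the 425 broad regions, but the lists are scaled differently, so this does not measure a difference in binding. The median fold of the others was also the higher in replicate 2 (8.81 against 6.04), and their single regions were not counted.

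The difference in height was also present when the list that gave the width was not the list that gave the pileup. The 1011 regions wide in replicate 1 had a median replicate 2 pileup of 36.85 (36.0 to 37.7), and the 8845 narrower ones had 26.56 (25.7 to 26.56). The 656 regions wide in replicate 2 had a median replicate 1 pileup of 35 (34 to 36), and the 9388 narrower ones had 25 (24 to 25). Median fold in the list not used was 11.5 against 8.71 and 9.04 against 6.06. The 2 replicates are the only independent samples here, and both directions gave the same order. These directions are not independent of each other, since the broad regions are counted in both. Across the 9856 shared regions the pileups of both lists had a Spearman correlation of 0.72. Swapping the lists therefore does not separate pileup from the width rule.

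Broad regions were a larger share of the taller sites. Over all 9856 shared regions the Spearman correlation of width with pileup was 0.43 in replicate 1 and 0.51 in replicate 2. Ordered by the geometric mean of both pileups, the lower 50% of the shared regions held 41 broad regions of 4937 (0.83%), and the next 30% held 125 of 2950 (4.24%). The share was 10.9% (107 of 984) from 80 to 90%, 15.7% (77 of 492) from 90 to 95% and 15.2% (75 of 493) in the upper 5%. It levelled off there, at intervals of 12.7 to 19.1 and 12.3 to 18.7. Within the broad regions, whose range of widths the rule limits, width was nearly unrelated to pileup, with Spearman correlations of 0.078 in replicate 1 and 0.084 in replicate 2 (n = 425). In the other shared regions these were 0.39 and 0.49 (n = 9431). The median width of the broad regions was 1071 bp in the lower 50% by pileup and 1108 bp in the upper 5% in replicate 1, whereas that of the others was 365 and 555.5 bp.

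Broad regions took a larger share of the strong O11 sites than of all sites. Ranked by the product of both folds, 94 of the 500 strongest shared regions were broad (18.8%) and 11 of the first 100 (11%), against 4.31% of all. Among the 10 strongest it was 0, a number too small to set against that share. Within each pileup class the median replicate 1 fold was higher for broad regions than for the others. It went from 6.92 against 5.197 in the lower 50% to 14.3 against 12.1 in the upper 5%. The replicate 2 fold was higher in the lower 50% (8.61 against 7.12). It was close from 50 to 80% (10.53 against 10.38) and from 80 to 90% (14.02 against 14.04). From 90 to 95% (15.92 against 16.995) and in the upper 5% (21.1 against 22.4) it was lower. The broad region with the highest product was 2888888 to 2890038 on chromosome 5, 1151 and 1090 bp wide. Its pileups were 71 and 135.39 over backgrounds of 2.54 and 2.0, giving folds of 20.3 (15.9 to 25.6) and 45.5 (38.7 to 53.1), and its summits were 12 bp apart at the middle of the region.

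A pair of neighbouring broad regions on chromosome 10 showed how the lists can divide 1 stretch. Replicate 1 had a region from 5116002 to 5117444 with a pileup of 91 and a fold of 15.0 (12.1 to 18.3), and another from 5117713 to 5118669 with a pileup of 142 and a fold of 19.9 (16.8 to 23.5). Replicate 2 had a single region of 2636 bp from 5116053 to 5118688, with a pileup of 196.23 and a fold of 42.3 (37.0 to 48.1). Its summit was 14 bp from that of the second replicate 1 region and 2012 bp from that of the first. This is the largest distance between paired summits among the 425, and it comes from the pairing of 1 replicate 2 region with both.

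The other 2 among the 5 highest products were a chromosome 2 region, 37072348 to 37073209, and a chromosome 8 region, 168495128 to 168495946. The first was 862 and 845 bp wide, with folds of 20.2 (15.2 to 26.4) and 34.96 (27.7 to 43.6). The second was 819 and 989 bp wide, with folds of 16.2 (12.4 to 20.7) and 41.1 (33.8 to 49.5). Both lay near the lower limit of width.

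At the other end, broad regions could be weak. The lowest product belonged to chromosome 1 from 194608448 to 194609466, 1019 and 1077 bp wide, with pileups of 22 and 21.42 and folds of 4.82 (3.10 to 7.19) and 3.74 (2.48 to 5.44). Next came the chromosome 1 region 21470152 to 21471732 (folds 4.19 and 4.48), then 108818855 to 108820437 on chromosome 5 (4.43 and 4.68). The chromosome 5 region was 1583 and 1398 bp wide, and its backgrounds of 8.49 and 8.0 were well above the medians, with pileups of 41 and 41.13. The remaining 2 were 13668621 to 13669691 on chromosome 9 (5.66 and 4.43) and, on chromosome 1, 293537419 to 293538401 (4.199 and 6.03). At these 5 regions the intervals of the folds in both replicates overlapped.

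Inside the broad regions the summit was less often central than in the others. In replicate 1 the summit fell in the central 20% of the width in 102 of 425 broad regions (24.0%, 20.2 to 28.3) and in 51.3% (50.3 to 52.3) of the others. In replicate 2 it did so in 91 (21.4%, 17.8 to 25.6) and in 56.3% (55.2 to 57.2). The 20% bands on either side of the centre held 32.0% and 28.2% of the broad summits in replicate 1 and 28.0% and 30.4% in replicate 2. The 2 outermost bands of 20% held 8.47% and 7.29% in replicate 1 and 10.8% and 9.41% in replicate 2.

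**Figure D4:**
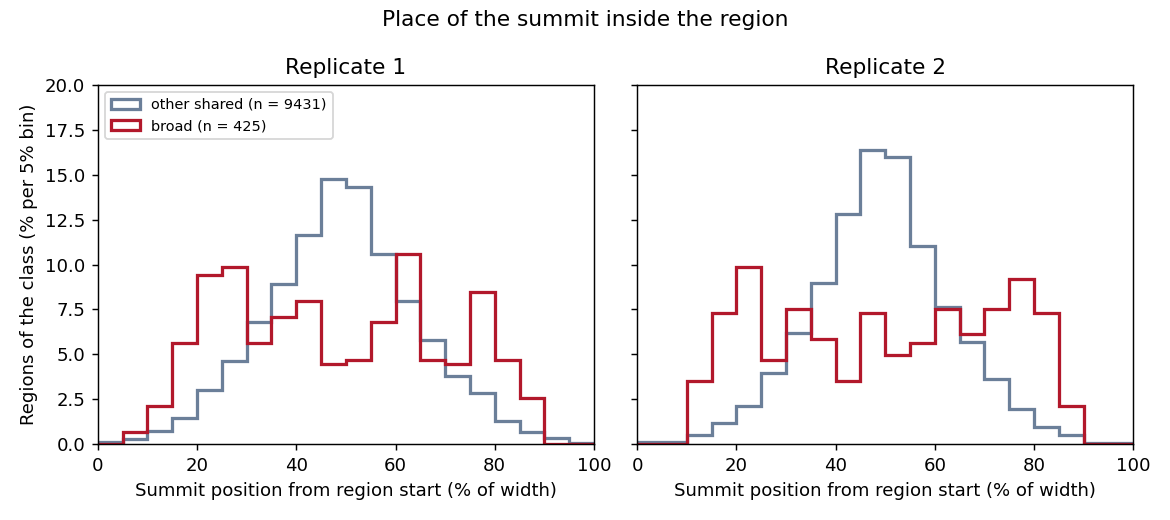
Place of the summit inside the region, from its start at 0 to its end at 100% of the width (horizontal), as the share of each class per 5% bin (vertical, %), for 425 broad (red) and 9431 other shared regions (grey) in each replicate. The grey curves peak at the centre, while the red curves are spread, with 24.0% and 21.4% of broad summits in the central 20%.

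Broad summits lay to either side of the centre: at 225 of the 425 regions they were in the lower-coordinate 50% in replicate 1, and at 211 in replicate 2. The median distance of the summit from the centre was 19.0% of the width in replicate 1 (16.8 to 21.1) and 20.6% in replicate 2 (18.2 to 22.1), against 9.68% (9.41 to 9.92) and 8.47% (8.23 to 8.72) in the others. In regions wide by the other list alone it was 16.8% (15.3 to 17.9) in replicate 1 and 14.7% (13.7 to 15.5) in replicate 2, against 9.80% and 8.31% in the narrower ones.

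The distances from the summit to its borders were sorted by size, so the farther one is the longer by definition. The limit of 800 bp also sets a least length for it. How the extra width divides around the summit was therefore not tested. From the summit to the nearer border the broad regions measured a median of 322 bp in replicate 1 and 300 bp in replicate 2, and the others 166 and 163 bp. To the farther border the broad regions measured 708 and 697 bp, and the others 235 and 221 bp. In each pileup class from the lower 50% to the upper 5% the broad summits were farther from the centre than the others, by medians of 15.2 to 23.8% against 6.77 to 11.4% of the width in replicate 1.

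The off-centre side was mostly the same in both replicates. At 313 of the 425 broad regions (73.6%, 69.3 to 77.6) both summits lay on the same side of the centre of their region, against 55.6% (54.6 to 56.6) of the others. Where both summits were at least 10% of the width from the centre, it was 210 of the broad regions (76.6%, 71.3 to 81.3) and 1436 of the others (63.7%, 61.7 to 65.7). The position of the summit within the region had a Spearman correlation of 0.45 between replicates in the broad regions (n = 425). It was 0.16 in the others (n = 9431). These measures are shares of the width, so the same shift in bp changes the side more easily in a narrow region. How much of the difference comes from width was not tested.

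Most paired summits coincided, but the broad regions had a long tail. The median distance between the summits of both replicates was 59 bp (52 to 66), with quartiles of 26 and 202 bp, against 43 bp (41 to 44) and quartiles of 19 and 82 bp in the others. Within 100 bp lay 279 of the broad pairs (65.6%, 61.0 to 70.0) and 81.5% (80.7 to 82.3) of the others. Over 300 bp apart were 82 broad pairs (19.3%, 15.8 to 23.3) and 246 others (2.61%, 2.31 to 2.95). Narrow regions leave less room for distant summits, and how much of the difference comes from that was not tested. Of the 82 pairs, 61 had their summits on opposite sides of the centre. Their median pileups were 32.5 and 38.56, below the 39 and 46.27 of the pairs within 100 bp. After the chromosome 10 region, the farthest summits were 1530 bp apart at 72143661 to 72146004 on chromosome 8 and 1498 bp apart at 280444683 to 280445933 on chromosome 1. In both of these the replicate 1 stretch overlapped at least 2 replicate 2 regions, and the replicate 1 summit lay outside the replicate 2 partner. A broad region was paired only with a wide partner, whereas the others were paired with the nearest of all overlapping regions. At 11 broad regions the partner was not the nearest, which lengthens their distances. With the nearest of all as partner the median of the broad regions was 58 bp. How much of the long tail comes from the pairing was not tested.

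Summits coincided better at taller broad regions. The median distance was 210 bp among the 41 broad regions in the lower 50% by pileup, 76 bp among the 125 in the next class, 49 bp in each of the next 2 classes and 35 bp among the 75 in the upper 5%. The others went from 56 to 21.5 bp over the same classes. In each class the median of the broad regions was the larger.

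Place on the chromosome was not used to choose the regions. Broad regions were found on all 10 chromosomes, from 17 on chromosome 10 to 82 on chromosome 1. Their share of the shared regions ran from 2.72% (1.71 to 4.31) on chromosome 10 and 3.11% (2.12 to 4.56) on chromosome 4 to 5.40% (4.23 to 6.86) on chromosome 3, and the interval of each chromosome included the overall 4.31%. Per megabase, chromosome 4 had the fewest, at 0.103, and chromosome 1 the most, at 0.273. The last peak of either list was taken as the end of a chromosome.

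Like the other O11 sites, broad regions lay mostly toward the chromosome ends. In the outer 25% at either end were 318 of 425 broad regions (74.8%, 70.5 to 78.7) and 6542 of 9431 others (69.4%, 68.4 to 70.3). Even spacing would give 50%. The difference was 5.46 percentage points, with a 95% Newcombe interval of 1.02 to 9.46. At the very ends the order was the other way: the outer 5% held 15.5% (12.4 to 19.3) of the broad regions and 18.4% (17.6 to 19.2) of the others, a difference whose interval of -6.12 to 0.94 included 0. For the outer 10% the difference was 3.67 points (-0.96 to 8.48). The middle 20% held 24 broad regions (5.65%, 3.82 to 8.26) against 9.04% (8.48 to 9.64) of the others. The fullest 5% bin was that from 90 to 95% of the length, with 64 broad regions (15.1%), and 6.07% of its shared regions were broad.

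The chromosomes did not all go the same way. The outer share of the broad regions was above that of the others on 7 of 10. The difference was largest on chromosome 10, where 16 of 17 broad regions were outer (94.1%, 73.02 to 98.95) against 69.9% of the others, and on chromosome 3, with 53 of 62 (85.5%, 74.7 to 92.2) against 68.5%. On chromosome 4 it was reversed, with 9 of 25 (36.0%, 20.2 to 55.5) against 54.4%, and on chromosome 9 with 15 of 29 (51.7%, 34.4 to 68.6) against 70.2%. The interval of the difference excluded 0 on chromosomes 3 (5.79 to 24.2) and 10 (2.83 to 30.3) in 1 direction and on chromosome 9 (-36.0 to -1.22) in the other. By pileup class, the difference ran from -2.61 points (-14.7 to 8.21) in the upper 5% to 19.5 points (9.29 to 27.0) from 90 to 95%, and in the other 3 classes the interval included 0. The pooled difference of 5.46 points was thus not shared by all chromosomes or pileup classes.

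**Figure D5:**
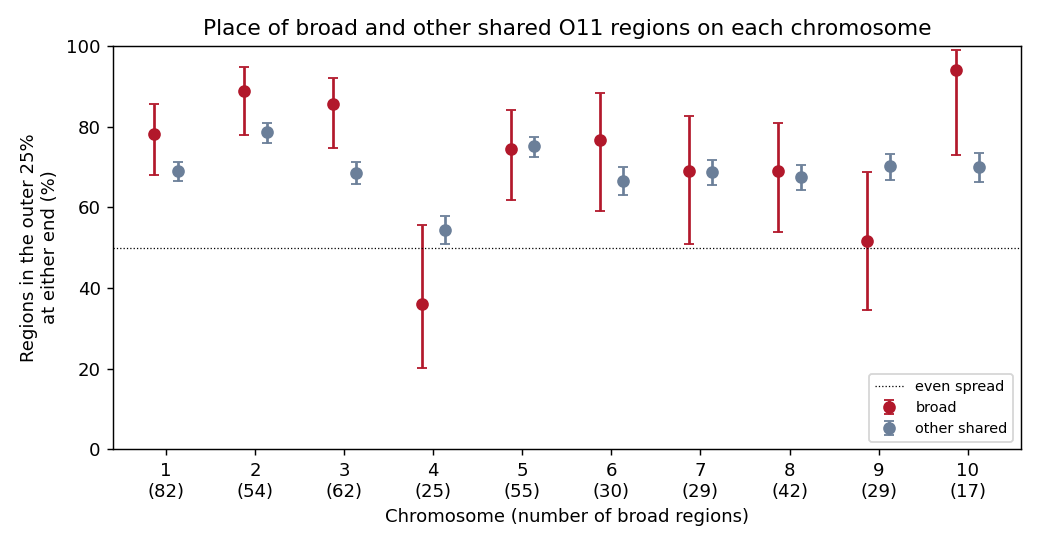
Share of broad (red) and other shared regions (grey) in the outer 25% at either end (vertical, %) of each chromosome (horizontal, with the number of broad regions); points are shares, bars Wilson 95% intervals, and the dotted line an even spread. Chromosomes 4 and 9, at 36.0% and 51.7%, stand below their grey points, and chromosomes 3 and 10 above, at 85.5% and 94.1%.

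Some chromosomes had broad regions mainly at 1 end. On chromosomes 6 and 7 the first 25% of the length held 1 broad region each, against 22 and 19 in the last 25%. On chromosome 10 no broad region lay between the summits at 16210032 and 110105626, a stretch of 93.9 Mb. Chromosomes 1 and 2 had more in the first 25% (38 and 32) than in the last (26 and 16). Over all chromosomes the first 25% held 30.6% of the broad regions and 27.4% of the others. The last 25% held 44.2% and 41.9%. The others were not counted by end on single chromosomes or within the 93.9 Mb stretch. Whether these patterns are particular to broad regions was therefore not tested.

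Broad regions more often had company than the others. Another shared summit lay within 5 kb of 174 broad regions (40.9%, 36.4 to 45.7) and of 29.7% (28.8 to 30.6) of the others, a difference of 11.2 points (6.57 to 16.1). With the width taken from replicate 2 alone the difference was 18.3 points (14.5 to 22.2), and from replicate 1 alone 10.6 points (7.44 to 13.8). In the former, replicate 1 pieces of 1 wide replicate 2 region all count and can be each other's neighbours, so that value is raised by construction. With overlap of at least 50% of both peaks the difference was 9.03 points (4.49 to 13.8). Measured from border to border, which allows for width, a neighbour lay within 5 kb of 43.8% (39.1 to 48.5) against 30.7% (29.8 to 31.6). The median distance to the next shared summit was 8056 bp (6504 to 11217) for broad regions and 26775 bp (24500 to 28369) for the others. Isolated regions, with no shared summit within 100 kb, were 53 broad ones (12.5%, 9.66 to 16.0) and 26.0% (25.1 to 26.9) of the others. The share with a neighbour within 5 kb was above that of the others in each pileup class, from 46.3% against 31.1% in the lower 50% to 32.0% against 28.0% in the upper 5%.

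Some broad regions lay close to one another. Of 415 pairs of neighbouring broad summits on the same chromosome, 11 were within 5 kb, 22 within 20 kb and 43 within 100 kb, and the median spacing was 1562 kb. The closest pairs were 1236 bp apart on chromosome 6 (summits 156593464 and 156594700) and 1566 bp apart on chromosome 2 (48142203 and 48143769). The first of these had a further broad summit 12183 bp away, at 156581281. The 425 regions occupied 336 windows of 1 Mb, at most 4 to a window. The 6 windows with 4 began at 16000001 and 56000001 on chromosome 1, at 5000001 and 189000001 on chromosome 2 and at 5000001 and 50000001 on chromosome 3. The pairs and windows were picked after their values were seen. Matching counts were not made for the other shared regions, so whether this spacing is particular to broad regions was not tested.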

How the data were processed

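ChIP DNA of 4 libraries (WT and o11, 2 replicates) was sequenced. The submitters' processing notes name the build B73 RefGen_v3 and the tools MACS2 2.1.0 and Bowtie2 2.3.2, without settings. Per the labels, each list uses WT as the sample and o11 as the control of 1 replicate number, and replicates were not pooled. Per the file headers the lists hold width, pileup (a WT coverage signal) and fold enrichment (a ratio). The authors' deposited -log10 p and -log10 q columns have damaged names, and the second equals the summit lists' score in every row.

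The lists were used as deposited. The o11 background of each peak was computed back from the fold, taking it as (pileup + 1) over (background + 1). Replicate 1 pileups were whole, and those of replicate 2 came in steps of 0.857 (99.1% within 0.005), so they are scaled coverage and library depth is unknown. Fold intervals are exact Poisson intervals on the unscaled WT reads at a fixed background, all intervals being at 95%. Where several wide replicate 2 regions overlapped, the one with the nearest summit was taken, and for other regions the nearest of all. No test was run on values of the contrast that chose the regions, and position is given with intervals only.

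Regions were named by a rule: the 10 widest by their smaller width, the widest per chromosome, the 5 highest and 5 lowest products of folds, 3 on each side of the width limit and the 3 with the farthest summits. Members, lists and rules were chosen with earlier results of these data known. The pairing code was tested on simulated data. Python 3.11.15, numpy 2.4.6, pandas 2.3.3, scipy 1.17.1 and matplotlib 3.10.9 were used.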

Additional observations from a re-analysis of the deposited data

Results flagged for a closer look

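Wide stretches also occurred off the numbered chromosomes, in data that the comparisons do not use. The mitochondrial sequence held 29 regions of at least 800 bp in replicate 1, of 118 in all, the widest being 4992 bp. Their folds over o11 ran from 1.42 to 4.70 with a median of 1.93, over a median o11 background of 79.2. Replicate 2 had 11 mitochondrial regions, of which 0 were that wide, so 0 regions off the numbered chromosomes were wide in both lists.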

How the results depend on the processing

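Of 110 alternative values, 83 stayed within the interval of the reported value (for counts, within 1.5 times) and 27 moved further. A change of sign was possible only for the log2 ratios, and 0 occurred. A limit of 700 bp gave 759 broad regions with a width agreement of 49.9%, and 1000 bp gave 176 with 38.6% and a log2 fold ratio of 0.80 in replicate 1. Overlap of at least 50% of both peaks gave an agreement of 55.7% and close neighbours at 34.5%. Starting from the replicate 2 list gave 64.8% and 46.4%. With q below 1e-05 in both lists the log2 pileup ratios were 0.51 and 0.63 and the replicate 1 fold ratio 0.65. Ends of 10% held 39.3% of broad regions, and neighbours within 10 kb were found at 53.6%, both by construction. With the width rule in 1 list only, the count was 690 to 1011, the log2 pileup ratio 0.46 to 0.50 in replicate 1 and 0.47 to 0.60 in replicate 2, and the fold ratio 0.54 in replicate 1 and 0.40 to 0.56 in replicate 2. The summit offset was then 16.4 to 20.8% and 14.4 to 20.9%, the summit distance 51 to 62.5 bp and close neighbours 39.7 to 47.2%. Over 13 settings, the main one included, the broad regions exceeded the others by 3.67 to 6.31 points in the outer share (interval above 0 in 11). In close neighbours they did so by 9.03 to 18.3 points (above 0 in 13). These tallies hold repeats and are not separate support. The partner with the longest overlap gave the main value of both measures. The 10 kb limit cannot change the outer share, and the 10% ends cannot change close neighbours. The 18.3 is for the replicate 2 width alone, where replicate 1 pieces of 1 replicate 2 region can count as neighbours. Other causes were not tested. Taking the nearest of all replicate 2 regions as the partner, chosen after seeing the data, left 414 broad regions. No paired analysis was possible because the results come from no test between WT and o11 samples. Library depth is unknown, so its effect on width was not measured.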
